A study of Mus musculus with 20 samples.

Results

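Lect2, Rhbg, Glul, Oat and Axin2 are genes whose expression in the liver lobule is concentrated in the hepatocytes around the central vein. All 5 were named by the array's platform annotation, and they were followed over the 20 arrays, among 11734 named genes and 21643 measured features. Glul was read by 2 probes and each of the others by 1. The livers came from gonadectomized C57BL/6J mice bred as core genotypes. Their Y chromosome is deleted for Sry, which starts testis development, and a Sry transgene sits on an autosome, so that gonads and sex chromosomes were inherited independently. The 4 groups of 5 animals were the gonadal males XX Sry (XXM) and XY-Sry (XYM), which carried the transgene, and the gonadal females XX (XXF) and XY- (XYF), which did not. Every animal ate chow with 4% fat, lost its gonads at 8 weeks and was killed at 12 weeks after a 12 h fast, and so had no ovaries or testes when liver was taken. No group with intact gonads was analysed here. Each animal had its own array and was set against a common liver pool, so that values are log2 ratios of liver over pool and levels cannot be ranked between genes.

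The liver lobule is divided into zones along the path of blood from the portal vein to the central vein. Endothelial cells of the central vein release Wnt ligands and R-spondins, which stabilise beta-catenin in neighbouring hepatocytes and maintain the pericentral gene programme. Urea synthesis is strongest near the portal vein, while the pericentral cells take up the remaining ammonia and bind it into glutamine. Glul encodes glutamine synthetase, which carries out that last step. Rhbg encodes an ammonia transporter of the Rh glycoprotein family. Oat encodes ornithine aminotransferase, a mitochondrial enzyme that turns ornithine toward glutamate. Lect2 encodes a protein secreted by hepatocytes and first described as a chemotactic factor for leukocytes. Axin2 encodes a scaffold of the complex that degrades beta-catenin, and it is itself induced by Wnt signalling as a negative feedback.

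The mouse gene table of assembly GRCm38.p6 places Lect2 at chr13:56529734-56548559, Rhbg at chr3:88242874-88254739, Glul at chr1:153899929-153909723, Oat at chr7:132557475-132576398 and Axin2 at chr11:108917828-108950783. RefSeq promoter windows of the same build, which run from 250 bases before to 50 bases after 1 annotated start, were at hand for Lect2, Glul, Oat and Axin2. That start need not be the outer end of the gene given above: Axin2's window (chr11:108920099-108920398) lies inside the gene, and the start used for Lect2 lies just inside its gene's outer end. Factors of the TCF/LEF family carry beta-catenin to DNA, and their core letters CTTTGAT were searched on both strands of these windows. Of the 4 windows, Lect2's held the letters. The 250 bases upstream of that window's start are shown because Lect2 is the gene with the clearest difference between groups below. They lie at chr13:56548539-56548788 on the minus strand, with the match (read here as its reverse complement) in capitals.

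Lect2: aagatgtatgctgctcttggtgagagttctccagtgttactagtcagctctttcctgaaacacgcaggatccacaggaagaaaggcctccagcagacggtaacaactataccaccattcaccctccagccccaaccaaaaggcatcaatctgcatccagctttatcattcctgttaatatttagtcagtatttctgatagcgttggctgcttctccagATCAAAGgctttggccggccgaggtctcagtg

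The match spans positions -32 to -26 from the start. The letters occurred in 3.73% of all 32851 windows and in 4 of 54 windows (7.41%) of a wider list of pericentral hepatocyte genes. The shorter form CTTTGA, which lies within CTTTGAT, occurred in 16% of all windows, in 14 of 54 (25.9%) of the pericentral list and, among the 4 windows, again in that of Lect2. A match describes letters in a window and does not show a site in use.

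Facts of the arrays that touch these genes are as follows. The log2 ratios of XXF 2, XXF 6, XYF 3 and XYF 12 spread most, with an SD over features of 0.32 to 0.341, against 0.175 to 0.264 on the other 16 arrays. The library labelled XYF 30 went against its label. Its Y-linked Eif2s3y, a translation factor subunit, stood at -3.90, inside the range of the 10 XX livers (-5.28 to -2.46) and below that of the remaining 9 XY livers (0.57 to 1.34). Results are given with all arrays, and for Lect2 and Rhbg, and where a gene list's calls changed, also without the library labelled XYF 30 or without the 4 arrays of wide spread. Genes that mark hepatocytes in general did not pass the test between gonadal types (0 of 10 measured called by limma, 1 at an unadjusted p under 0.05), except that Tdo2, tryptophan dioxygenase, was called higher in gonadal males without the library labelled XYF 30 (0.68, adjusted p = 0.0185, against 0.57 and 0.0867 with it). RNA came from whole liver, so the place of expression in the lobule was not measured. Fewer cells of a type and less RNA per cell cannot be told apart in such samples.

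The first comparison asked whether the genes depend on gonadal type. Lect2 and Rhbg were lower in gonadal males, Lect2 by 1.69-fold and Rhbg by 1.59-fold, while Glul, Oat and Axin2 did not pass the test. Calls are from limma with Benjamini-Hochberg adjustment over all 21643 features at an adjusted p of 0.05. With 2 of 5 genes called lower, the background over all features was 2.28% called lower and 1.46% called higher.

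Lect2 stood at -0.41, -0.32, -0.21, -0.63 and -0.53 in XXM and at -0.33, -0.09, -0.67, -0.05 and 0.05 in XYM. Among gonadal females it stood at 0.35, 0.80, 0.26, 0.40 and 0.57 in XXF and at 0.62, 0.63, -0.18, 0.85 and 0.06 in XYF. Every XXM liver lay below every XXF liver, while XYF 24 and XYF 22 lay within or next to the range of XYM. The difference was -0.75 ± 0.12 (SE), with a 95% interval of -1.01 to -0.50 and an adjusted p of 0.00229 by limma, the 71st smallest p of all features. The exact permutation test that exchanged animals within each sex chromosome complement gave a two-sided p of 0.000189 over 63504 arrangements. By mean, from low to high, the groups were XXM (-0.42 ± 0.17, SD, n = 5), XYM (-0.22 ± 0.29), XYF (0.39 ± 0.43) and XXF (0.48 ± 0.21). Neighbours with the same gonads did not differ beyond their spread. Lect2 was called in all 20 fits that left out an animal (adjusted p at most 0.00679). Without the library labelled XYF 30 the difference was -0.72 (adjusted p = 0.00437). It was -0.57 when the 4 wide arrays were left out (adjusted p = 0.0179). Those 4 are all gonadal females, with a median Lect2 of 0.71, against 0.31 in the other gonadal females. No array but the library labelled XYF 30 reached their lowest value of 0.57. XYF 30 and the wide arrays were left out only separately.

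Rhbg stood at -0.43, -0.68, -0.01, -0.41 and -0.30 in XXM and at -0.69, -0.85, -0.32, 0.04 and -0.02 in XYM. In gonadal females it stood at 0.63, 0.28, 0.33, 0.30 and 0.26 in XXF and at 1.18, 0.11, -0.08, 0.26 and -0.22 in XYF. The 5 XXF livers lay above all XXM livers, with XXF 29 at 0.63 and the others at 0.26 to 0.33. XYF 12 was the highest of all 20. The difference between gonadal males and gonadal females was -0.67 ± 0.15 (SE), with a 95% interval of -0.99 to -0.35 and an adjusted p of 0.0207 by limma. The exact permutation test gave a two-sided p of 0.000346. Group means were -0.37 ± 0.24 in XXM, -0.37 ± 0.40 in XYM, 0.36 ± 0.15 in XXF and 0.25 ± 0.55 in XYF (SD, n = 5 each), so that order within a gonadal type was not resolved. Rhbg was called in all 20 fits that left out an animal, with the adjusted p reaching 0.0486 without XYM 19. It was also called without the library labelled XYF 30 (-0.69, adjusted p = 0.0212) and with the 4 wide arrays left out (-0.55, adjusted p = 0.0378).

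Axin2 stood at -0.27, -0.70, -0.34, -0.04 and -0.36 in XXM and at -0.27, -0.10, 0.29, 0.13 and 0.01 in XYM. Its values were 0.57, 0.09, 0.43, -0.38 and -0.18 in XXF and 0.10, -0.23, 0.07, -0.41 and -0.13 in XYF. All 5 XXM livers were below the pool, and the other 3 groups straddled it. Over both complements the difference between gonadal males and gonadal females was -0.16 ± 0.12 (SE, adjusted p = 0.539 by limma), with a 95% interval of -0.40 to 0.08.

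Oat stood at 0.81, 0.36, -0.06, 0.23 and 0.40 in XXM and at -0.15, -0.18, -0.11, 0.23 and -0.22 in XYM. Among gonadal females, Oat stood at 0.06, -1.10, 0.44, 0.48 and -1.06 in XXF and at -0.76, 0.72, -0.28, -1.44 and 0.25 in XYF. The 4 lowest values were those of the arrays of wide spread, and they lay apart from the other 16, which ran from -0.28 to 0.81. The difference between gonadal males and gonadal females was 0.40 ± 0.25 (SE, adjusted p = 0.456 by limma, 95% interval -0.13 to 0.93). Without those 4 arrays it was -0.15 (adjusted p = 0.673), the opposite direction.

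For Glul the 2 probes were read apart, because they disagreed. Probe A stood at -0.10, -0.13, 0.36, -0.42 and 0.12 in XXM, -0.07, -0.29, 0.04, 0.38 and -0.21 in XYM, -0.37, -0.62, 0.26, 0.29 and 0.60 in XXF and 0.28, -0.18, -0.11, 0.75 and 0.13 in XYF. Probe B stood at 0.23, 0.03, 0.25, 0.09 and 0.10 in XXM, 0.05, 0.01, -0.09, 0.19 and 0.12 in XYM, 0.10, -0.20, 0.20, 0.09 and -0.08 in XXF and -0.11, 0.01, -0.00, -0.22 and 0.16 in XYF. Both straddled the pool in every group except probe B in XXM, where all 5 values were above it. Averaged over both probes, Glul differed by -0.02 ± 0.09 between gonadal males and gonadal females (SE, adjusted p = 0.960 by limma), with a 95% interval of -0.20 to 0.16. Probe A gave -0.14 ± 0.15 and probe B 0.10 ± 0.06, opposite in direction, and neither was called.

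**Figure D1:**
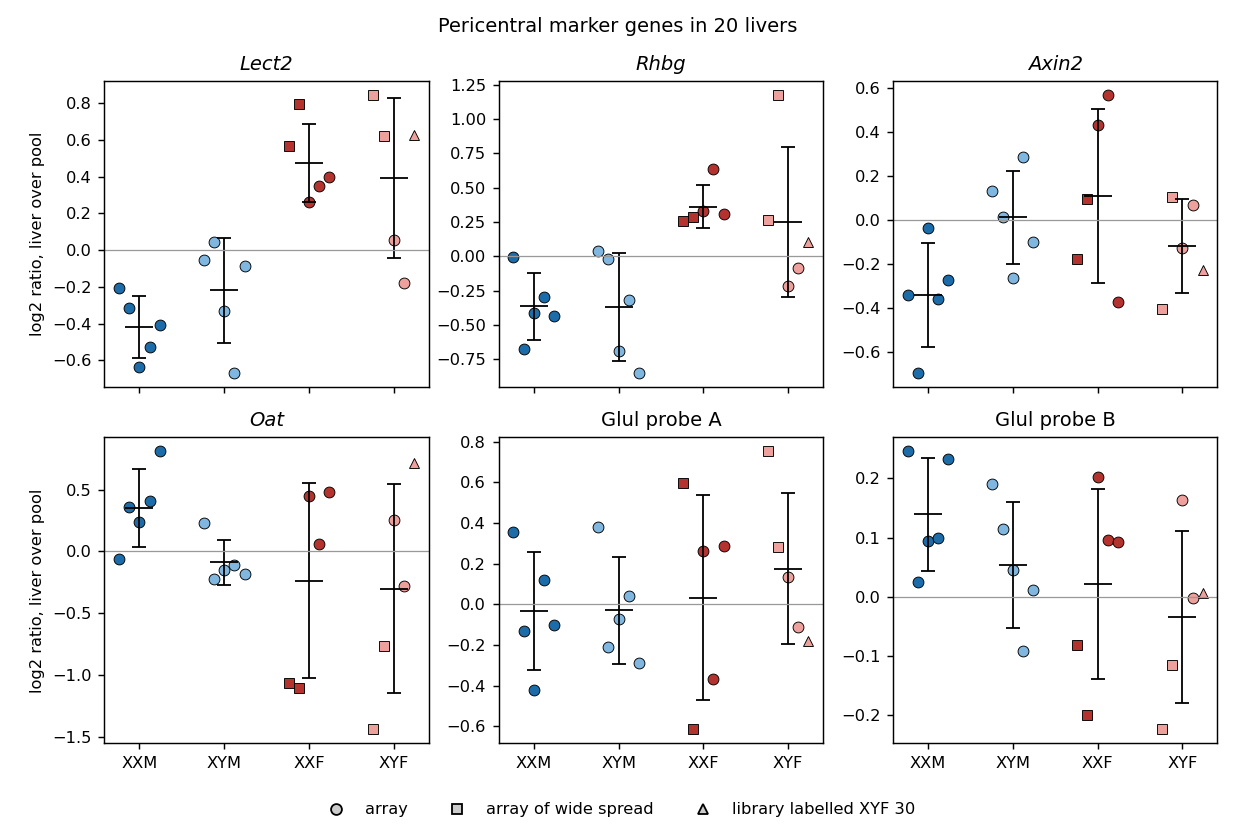
Log2 ratio of liver over pool for each animal (points), with group mean and SD (bars, n = 5), in XXM, XYM, XXF and XYF, on a separate scale per panel. Lect2 and Rhbg are lower in XXM than in XXF with no overlap, and the 4 lowest Oat values are the squares, arrays of wide spread.

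Within XX livers, Lect2 differed by -0.89 between XXM and XXF and was called (adjusted p = 0.0227 by limma, background 0.665% of features). Rhbg differed by -0.73 (adjusted p = 0.145) and Axin2 by -0.45 (adjusted p = 0.260, exact permutation p = 0.0714). Ranges of XXM and XXF did not overlap for Lect2 and Rhbg, which was so for 4.36% of all features. Their exact two-sided permutation p within XX was 0.00794 each, the smallest that 252 arrangements allow. Within XY livers none of the 5 was called, against a background of 0.157%. There Lect2 differed by -0.61 (adjusted p = 0.256 by limma, exact permutation p = 0.0476) and Rhbg by -0.62 (adjusted p = 0.356, exact permutation p = 0.0635), both lower in XYM than in XYF on average. No ranges of the 5 genes were apart in XY, as 1.49% of features were. The library labelled XYF 30, which went against its label, is counted as XY here and stood at 0.63 for Lect2. Values within XY without it are not given here.

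The second comparison asked whether the genes depend on the sex chromosomes. None of the 5 was called between XX and XY livers, and limma called 0.0277% of all features there. The differences were -0.06 ± 0.12 for Lect2, 0.06 ± 0.15 for Rhbg, -0.00 ± 0.09 for Glul, 0.25 ± 0.25 for Oat and -0.06 ± 0.12 for Axin2 (SE). Without the library labelled XYF 30, counted here as XY, they were -0.03, 0.04, -0.02, 0.38 and -0.08 in that order, and none was called. The 95% intervals ran from -0.32 to 0.20 for Lect2 and from -0.26 to 0.38 for Rhbg. For Lect2, Rhbg and Glul the sign changed under other settings, so that no direction is read. Among gonadal males, Axin2 was lower in XXM than in XYM by 0.35 on average (-0.35 ± 0.16, exact permutation p = 0.0317, unadjusted limma p = 0.0446). Oat was higher there by 0.44 (0.44 ± 0.35, exact permutation p = 0.0159), but limma's unadjusted p was 0.234. The permutation p-values are not adjusted for the number of tests. Neither passed limma's adjusted test (adjusted p = 1 for both), where 0.00462% of features were called. The ranges of the groups overlapped for both genes. Among gonadal females limma called 0.0% of features (0, with 1317 at an unadjusted p under 0.05), and none of the 5 reached an unadjusted p of 0.05.

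The interaction tested whether the gonadal difference depended on the complement. No feature was called by limma (0.0%), and 563 had an unadjusted p under 0.05. Axin2 had the strongest interaction of the 5 genes: XXM minus XXF was -0.45 while XYM minus XYF was 0.13, a difference of -0.58 ± 0.23 (SE, adjusted p = 0.9995 by limma). It ranked 188th of 21643 features by p, and its 95% interval ran from -1.07 to -0.09. The interaction of Lect2 was -0.28 ± 0.25 and that of Rhbg -0.11 ± 0.31, so that a gonadal difference of unequal size in XX and XY was not detectable for either. Without the library labelled XYF 30 the interaction was -0.34 for Lect2, -0.07 for Rhbg and -0.55 for Axin2. For Oat it was 0.12, against 0.37 with all arrays. None was called.

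**Figure D2:**
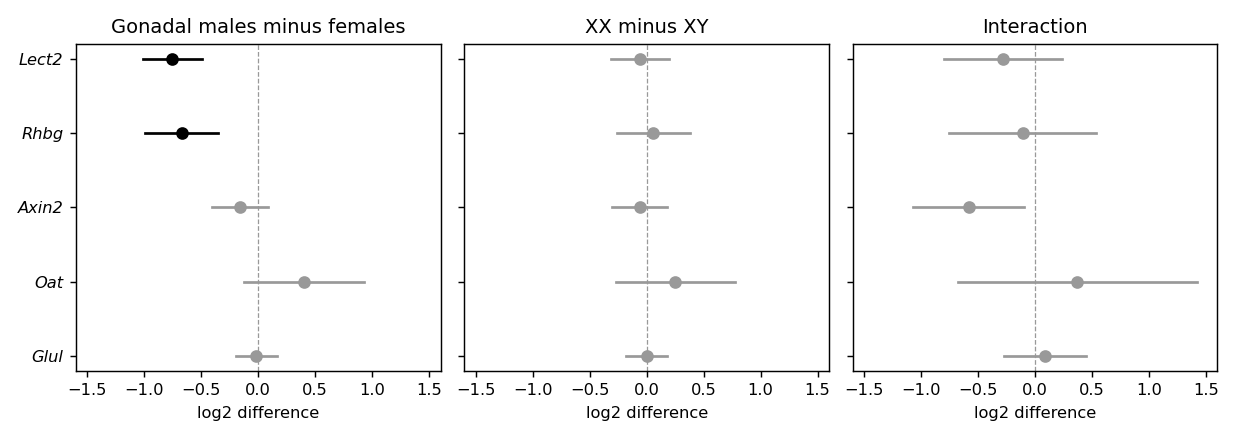
Log2 differences (points) with 95% intervals (lines) from limma for the 5 genes in 3 comparisons. Black marks an adjusted p under 0.05. For gonadal males minus gonadal females these are Lect2 (-0.75) and Rhbg (-0.67), while no gene is black for XX minus XY or the interaction.

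Within groups the genes varied unequally. The pooled SD around the group means was 0.605 for Oat (above 98.6% of all features), 0.368 for Rhbg (92.4%), 0.293 for Lect2 (85.8%), 0.276 for Axin2 (83.3%) and 0.201 for Glul (67%), against a median of 0.154. For Glul the SD was 0.369 for probe A and 0.129 for probe B.

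Lect2 and Rhbg varied together over the 20 livers, with r = 0.72 (permutation p = 0.00022, adjusted p = 0.00209 over 19 pairs) and rho = 0.78 (adjusted p = 0.00304). Without the 2 arrays farthest from the median of Lect2, r was 0.74. Over the 16 arrays without wide spread r was 0.67 and no longer passed (adjusted permutation p = 0.0813), while rho was 0.72 and did (adjusted permutation p = 0.0433). Within groups the relation did not pass the test. Around the 4 group means r was 0.36 (adjusted permutation p = 0.593), and it was 0.22 among the 10 gonadal males (permutation p = 0.527) and 0.44 among the 10 gonadal females (permutation p = 0.200). The 2 Glul probes, meant to read 1 gene, had r = -0.03 over 20 arrays (permutation p = 0.917) and 0.46 over the 16 without wide spread. Oat and Glul probe B had r = 0.78 over all 20 arrays (adjusted permutation p = 0.00209) and rho = 0.63 (adjusted p = 0.0285), but the 4 arrays of wide spread formed a separate cluster for Oat. Over the other 16 arrays this r was 0.35 (adjusted permutation p = 0.687), so the relation rests on those 4. None of Oat's pairs passed the adjusted test over the 16, where its r with Lect2 was 0.25 (adjusted permutation p = 0.687).

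The genes closest to each in pattern over the 20 arrays were picked by Pearson's r among 11732 others, as a description with no test, since all arrays share 1 pool. For Lect2 these were Sult5a1 (a sulfotransferase, r = 0.87), Gbp2b (an interferon-induced GTPase, 0.87), Lama1 (a laminin chain, 0.86), Ly6c2 (a leukocyte surface antigen, 0.86) and Manba (a lysosomal mannosidase, 0.86). Around the group means, r with these genes was lower, at 0.53 to 0.63. Each was itself called lower in gonadal males by limma, so the likeness includes a shared gonadal difference. Opposite in pattern was Dact1, which binds Dishevelled and modulates Wnt signalling, at r = -0.92, and -0.81 around the group means. Osbpl1a (an oxysterol-binding protein relative, -0.87) and Prmt7 (an arginine methyltransferase, -0.84) followed, at -0.64 and -0.69 around the group means. For Rhbg the closest were Ltb (lymphotoxin beta, r = 0.90), Man2b1 (a lysosomal mannosidase, 0.89), Plvap (an endothelial protein of vesicle diaphragms, 0.88), Csk (a kinase that inhibits Src kinases, 0.88) and Phc2 (0.86). Around the group means Rhbg's r was 0.82 with Ltb and ran from 0.76 to 0.83 over its closest genes. None of the 10 belonged to the pericentral list.

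Oat's closest genes were Hadhb (a subunit of the mitochondrial trifunctional protein of fatty acid oxidation, r = 0.95), Aadat (0.92), Tmem135 (0.91), Psma5 (a proteasome subunit, 0.91) and Slc27a2 (a fatty acid transport protein, 0.89). Without the 4 arrays of wide spread the r with Hadhb was 0.85 and with Slc27a2 0.75. Axin2's closest were Ppp2r3d (0.77) and Nrde2 (0.76), and Glul's were Crygs (0.84) and Scarf2 (0.84). Averaged over 23 genes, fatty acid oxidation stood at -1.16 in XXF 6, -0.79 in XXF 2, -0.64 in XYF 3 and -0.11 in XYF 12, while the other 16 arrays lay between -0.09 and 0.22. The 3 lowest of these livers were also the 3 lowest in Oat. Over all arrays limma called none of the 23 genes between gonadal types (7 at an unadjusted p under 0.05), with a median difference of 0.19. With the 4 wide arrays left out the median was -0.12, and Bdh1, a ketone body dehydrogenase (-0.92, adjusted p = 0.000429), and Acaa1a, a peroxisomal thiolase (-0.31, adjusted p = 0.0474), were called lower in gonadal males. Without the library labelled XYF 30, Acads, an acyl-CoA dehydrogenase, was (-0.38, adjusted p = 0.0452). The part of this pattern in Oat was not tested.

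**Figure D3:**
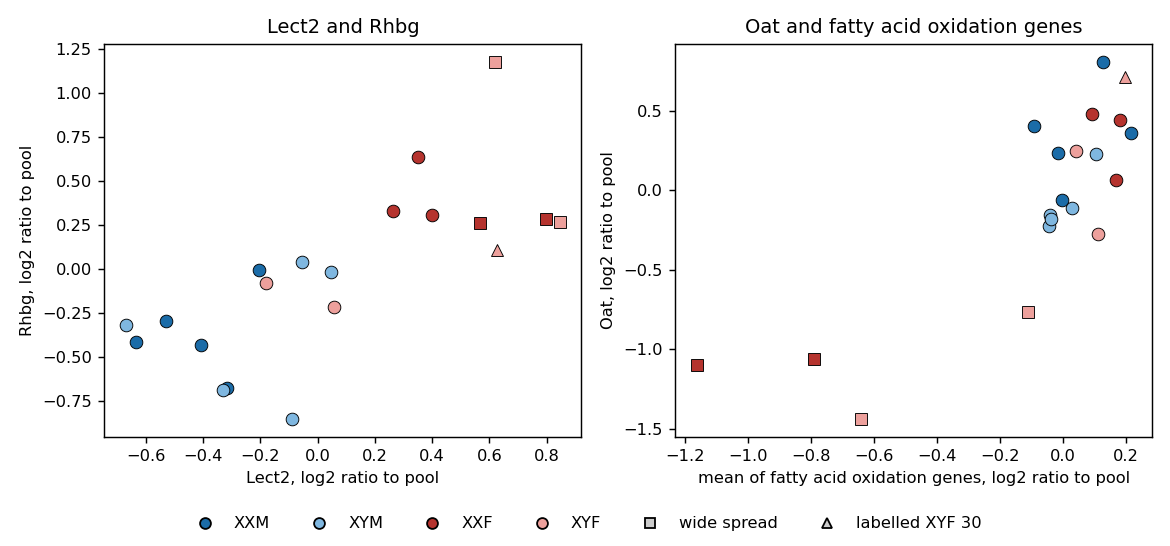
Left, Rhbg against Lect2 in 20 livers. Right, Oat against the mean of 23 fatty acid oxidation genes. All axes are log2 ratios to the pool, and colours mark XXM, XYM, XXF and XYF. XXM livers lie low and XXF livers high on the left, and the 4 squares (arrays of wide spread) lie lowest for Oat on the right.

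The wider list of pericentral genes, of which the 5 are part, had 45 of 59 genes measured. Limma called 7 of them lower in gonadal males and 0 higher, beside the background of 2.28% and 1.46%. The median difference was -0.11 (33 lower and 12 higher), against 0.01 over all features. The 5 called besides Lect2 and Rhbg were Car3 (carbonic anhydrase 3, -1.05 ± 0.26 SE, adjusted p = 0.0284), Aldh1a1 (a retinaldehyde dehydrogenase, -0.57 ± 0.15, adjusted p = 0.0413), Rnase4 (a secreted ribonuclease, -0.42 ± 0.08, adjusted p = 0.00614), Alad (the second enzyme of haem synthesis, -0.41 ± 0.07, adjusted p = 0.00347) and Slc13a3 (a dicarboxylate transporter, -0.32 ± 0.08, adjusted p = 0.0355). Rnase4 and Alad were called in all 20 fits without 1 animal, Car3 in 15, and Aldh1a1 and Slc13a3 in 10. Without the 4 arrays of wide spread, 4 pericentral genes were called lower and the median was -0.16, and without the library labelled XYF 30, 6 were.

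Among the periportal genes, 39 of 55 were measured, with a median difference of 0.04. Limma called 2 higher in gonadal males and 0 lower, beside 1.46% and 2.28% of all features. The 2 called were Asl, argininosuccinate lyase of the urea cycle (0.41 ± 0.11 SE, adjusted p = 0.0444), and Shmt1, a serine hydroxymethyltransferase (0.22 ± 0.05, adjusted p = 0.0284). Without the 4 arrays of wide spread neither was called, and without the library labelled XYF 30 Shmt1 was and Asl was not (adjusted p = 0.0563). Asl was called in 7 of the 20 fits without 1 animal and Shmt1 in 15. Between XX and XY livers, Gcsh of the glycine cleavage system was the single periportal gene called (-0.65, adjusted p = 0.0198), and no pericentral gene was. Gcsh was called in 14 of the 20 fits without 1 animal and lost its call with the 4 wide arrays left out (-0.61, adjusted p = 0.266).

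In the list of glutamine, glutamate and ammonia genes, 27 of 37 were measured, which include Glul, Oat and Rhbg. Limma called Rhbg lower in gonadal males, and Odc1 (ornithine decarboxylase, 0.34 ± 0.07 SE, adjusted p = 0.0161), Got1 (cytosolic aspartate aminotransferase, 0.68 ± 0.18, adjusted p = 0.0387) and Asl higher. Over all features 2.28% were called lower and 1.46% higher. Without the 4 arrays of wide spread 0 were called higher, and Aldh18a1, which makes a precursor of proline and ornithine, was called lower beside Rhbg (-0.34, adjusted p = 0.0279). Aldh18a1 was also called without the library labelled XYF 30 (-0.50, adjusted p = 0.0484), but not with all arrays (-0.47, adjusted p = 0.0649). Odc1 was called in all 20 fits without 1 animal, and Got1 in 5.

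With all arrays, no measured gene of the Wnt pathway lists passed the test between gonadal types. Limma called 0 of 19 ligands and R-spondins (2 at an unadjusted p under 0.05), 0 of 17 receptors (5), 0 of 16 inhibitors (2), 0 of 15 genes of the beta-catenin destruction complex and its transducers (1) and 0 of 9 TCF factors and nuclear partners (0). Median differences were 0.00, 0.02, -0.04, -0.02 and 0.02. Axin1, the other Axin scaffold of the destruction complex, was called lower without the library labelled XYF 30 (-0.23, adjusted p = 0.0288), against -0.16 (adjusted p = 0.339) with it. Dact1, outside these lists, was called higher in gonadal males (0.59, adjusted p = 0.00518 by limma). It was picked from these same arrays for its pattern opposite to Lect2, so this call is no separate support. Of the general Wnt target genes, 9 of 16 were measured and 0 called (3 at an unadjusted p under 0.05). Their median difference was 0.01, with 5 higher and 4 lower in gonadal males. Without the 4 arrays of wide spread their median was -0.16, like that of the pericentral list, and 0 were called. Lgr5, an R-spondin receptor and pericentral marker, differed by -0.48 (adjusted p = 0.231), Nkd1, a feedback inhibitor, by -0.34 (adjusted p = 0.147), Ccnd1, cyclin D1, by -0.45 (adjusted p = 0.279) and Wnt9b, a central vein ligand, by -0.05 (adjusted p = 0.604). Markers of central vein endothelium had 0 of 7 called (1 at an unadjusted p under 0.05).

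**Figure D4:**
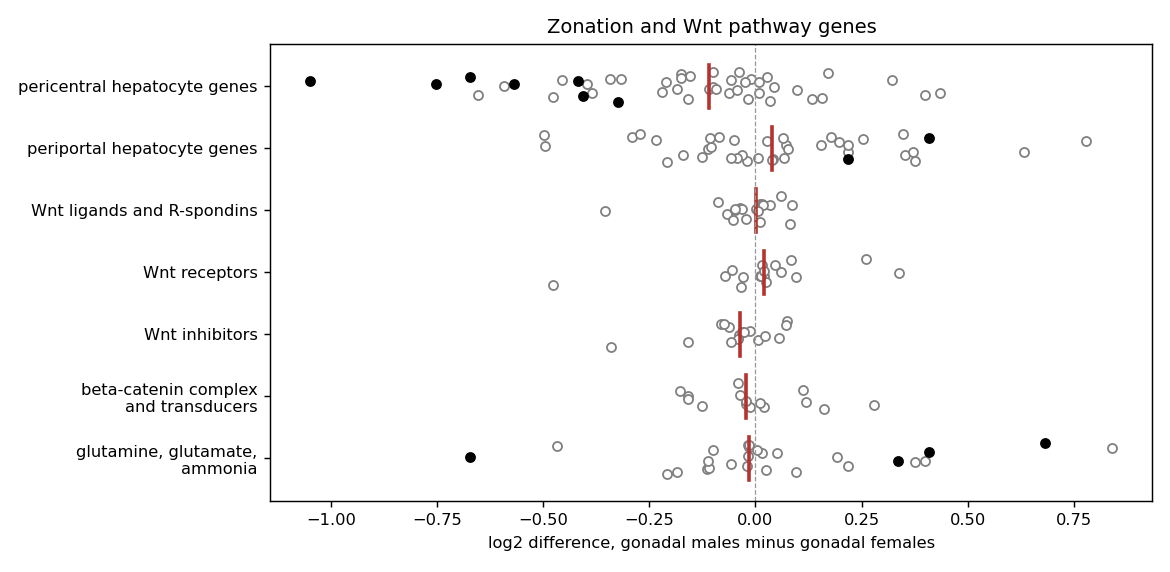
Log2 difference, gonadal males minus gonadal females, of each measured gene (points) in 7 gene lists, which share some genes. Black points passed an adjusted p of 0.05 and red lines are medians. The pericentral median is -0.11 and the periportal median 0.04, and no gene of the Wnt lists is black.

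Markers of other liver cells moved with gonadal type beside Lect2 and Rhbg. Limma called 7 of 16 macrophage markers lower in gonadal males, with a median difference of -0.84, and 7 of 15 lymphocyte markers, with a median of -0.10. Mean levels of the macrophage list ran from -0.85 to 0.42 in gonadal males and from -0.23 to 1.49 in gonadal females. Those of the lymphocyte list ran from -0.27 to -0.07 in gonadal males and from 0.01 to 0.57 in gonadal females, without overlap. The share of all features with ranges apart between gonadal types was not counted, so how unusual this is cannot be judged. Single lymphocyte markers differed by -1.7 to 0.18, with 10 lower and 5 higher in gonadal males. Of stellate cell and fibroblast markers 3 of 11 were called lower, of erythroid markers 1 of 6, and of cholangiocyte markers 0 of 7 (0 at an unadjusted p under 0.05) and of sinusoidal endothelium 0 of 13 (2). Over all features 2.28% were called lower. Some of these calls hung on single animals. Of the 20 fits without 1 animal, the macrophage marker C1qa was called in 7. The lymphocyte markers Ptprc and Cd8a were called in 9 and 5, and the stellate markers Pdgfrb and Colec11 in 12 and 16. The other called markers of these lists were called in all 20. With the 4 wide arrays left out, the lower calls numbered 6 macrophage, 6 lymphocyte, 1 stellate and 2 erythroid markers, and the lymphocyte marker Gzma, granzyme A, was called higher (0.51, adjusted p = 0.00795). XYF 12, an array of wide spread with the highest Rhbg value, also had the highest macrophage mean (1.49) and lymphocyte mean (0.57). Other livers did not line up in this way. XXF 29, next in Rhbg at 0.63, had a macrophage mean of -0.10 and a lymphocyte mean of 0.02. XXF 6, next in both means (0.53 and 0.35), had Rhbg at 0.28. XYM 14 had a macrophage mean of 0.42 with Rhbg at -0.02. The part of these cell types in the differences of Lect2 and Rhbg was not tested.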

How the data were processed

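Liver RNA in Cy5 was hybridised against a pool in Cy3 on 20 arrays, per the labels. The labels give a pool of 17 chow-fed mice and the design text equal portions of every sample. The authors deposited, for 23574 probes, values read here as the log10 ratio of a liver to the pool. They are limited at a size of 2, where 29 lie, and 2 are missing. Base and direction were inferred from the values. Y-linked genes, low in XX livers, give the direction but not the base. Fold sizes depend on that base, which no label states, and p-values do not. Scanner, background correction and dye normalization are not given in the sources used here, and signal over background was not used. Values were converted to log2, and probes that name 1 gene were averaged, which gave 21643 features.

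Using limma 3.58.1 (R 4.3.3), group means were estimated over all 20 arrays, with 1 shared spread, eBayes and Benjamini-Hochberg adjustment over all features. The fit was tested on simulated data. Permutation tests were two-sided, exact for single genes and over 100000 resamples for correlations. No numbers pair animals across groups. Ages, diet and fast are as labelled, and no separate batches are labelled. The 5 genes, the gene lists and the rule for named genes were chosen with earlier results of these data known. Names were drawn from the 5 genes, called list genes and up to 4 list genes of smallest p, the 5 highest and 3 lowest genes by r, and sex-linked checks. Not all of these are named in the text. Alternatives were other weights, scalings, priors and feature sets, and left-out arrays.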

Additional observations from a re-analysis of the deposited data

Results flagged for a closer look

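In tests of 28 sets of 5 livers (7 readings in 4 groups), a gap of more than 0.71 of the group's range set 2 values apart, where chance gives about 1 in 20. Rhbg in XXF 29 was at 0.634, above the other 4 XXF livers (gap 0.814 of the range). Oat in XYM 5 was at 0.228, above the other 4 XYM livers (gap 0.748 of the range). The call of Rhbg between gonadal types held without XXF 29 (-0.64, adjusted p = 0.0297 by limma).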

How the results depend on the processing

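The calls of Lect2 and Rhbg between gonadal types held under every alternative run, at -0.83 to -0.57 for Lect2 and -0.73 to -0.55 for Rhbg. Over the 5 genes, 18 of 300 fits without 1 animal and 12 of 148 other settings gave the opposite sign, all for values that were not called. Part of the 148 could not change sign. Another prior, named genes only, exact permutation, and single probes for genes with 1 probe all keep the same difference. The setting without the library labelled XYF 30 repeats a fit without 1 animal. The share of opposite signs therefore understates how freely the sign could move. Without the 4 arrays of wide spread Oat's gonadal difference was -0.15, Glul's XX minus XY 0.0672 and Glul's interaction -0.0536. Array weights gave 0.0379 for Glul and 0.0136 for Lect2 (XX minus XY) and -0.0327 for Glul's interaction. For XX minus XY, Glul was 0.0194 with scaled arrays, 0.00468 with quantile normalization, 0.0222 with animal number as a term and 0.0707 by probe B, and Lect2 was 0.00115 with animal number. Probe B gave 0.10 for Glul's gonadal difference. Without 1 animal, Glul ran from -0.0709 to 0.0122 (gonadal), -0.0323 to 0.0531 (XX minus XY) and -0.0253 to 0.152 (interaction), and Rhbg from -0.00289 to 0.173 (XX minus XY) and -0.341 to 0.00698 (interaction). The correlation of Lect2 with Rhbg was 0.36 around group means and 0.67 without the 4 arrays, no longer past the threshold, though rho without the 4 was. That of the Glul probes was 0.0897 around group means, 0.45 without the 2 farthest arrays and 0.46 without the 4. Features called between gonadal types (809) numbered 1679 with array weights, 539 among named genes, where fewer were tested, and 393 to 1129 without 1 animal. For XX minus XY (6) they numbered 13 without the library labelled XYF 30, 0 without the 4 arrays, 12 with array weights, 10 with scaled arrays, 2 with animal number and 2 to 13 without 1 animal. Otherwise the cause was not tested. The number of arrays limits precision.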
